A study of Mus musculus with 2 samples.

Results

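Low-RNA cells are the cell barcodes of this data set that carried fewer than 2000 gene UMIs (unique molecular identifiers, each standing for 1 counted RNA molecule). They were taken from all cells with 200 or more detected genes and under 10% mitochondrial UMIs, leaving out cells with 3 or more UMIs of the basophil protease gene Mcpt8. The rule found 1095 of 3710 kept cells. Of these, 783 came from the Selinexor library, out of 1967 kept cells, and 312 came from the DMSO library, out of 1743. The Mcpt8 condition removed 0 Selinexor cells and 2 DMSO cells.

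The study grew mouse myeloid-derived suppressor cells (MDSCs), immature myeloid cells known for dampening T cell responses, in culture for 4 days with IL-6 and GM-CSF at 40 ng/mL each. One culture also received 50 nM Selinexor, a drug that blocks exportin 1, the receptor that carries many proteins out of the nucleus, and the other received the vehicle DMSO. Live cells bearing CD11b, a surface integrin of neutrophils, monocytes and macrophages, were sorted after tagging with feature barcodes, and droplet libraries were made on the 10x Genomics platform. The labels give no mouse strain, age or tissue of origin for the cultures. Each group holds 1 library, so the spread between cultures is unknown, no difference was tested, and every interval below covers counting error only.

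Neutrophils are known to carry little RNA once mature. Their granule proteins are made early, primary granule enzymes in promyelocytes and specific granule proteins such as lactoferrin in myelocytes and metamyelocytes, while receptors such as Csf3r and Cxcr2 appear late. Activated neutrophils produce a limited set of chemokines and cytokines, many of them targets of the transcription factor NF-kB.

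UMI totals fell into a low and a high mode in both libraries, with few cells near 2000: the fullest bins of the low mode held 214 Selinexor cells at 889 to 1076 UMIs and 76 DMSO cells at 1077 to 1304 UMIs, and the bin at 1916 to 2320 UMIs held 51 and 31. Low-RNA cells made up 39.8% of kept Selinexor cells (95% Clopper-Pearson interval 37.6 to 42.0) and 17.9% of kept DMSO cells (16.1 to 19.8). They held 868022 UMIs, 6.76% of all UMIs of kept Selinexor cells, and 373088 UMIs, 2.62% of those of kept DMSO cells. The median low-RNA cell had 1065 UMIs and 619 genes in the Selinexor library, against 1172 UMIs and 668.5 genes in the DMSO library. No member had fewer than 519 UMIs in the Selinexor library or 538 in the DMSO library. A share of cells cannot tell more low-RNA cells apart from fewer cells of other kinds.

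**Figure D1:**
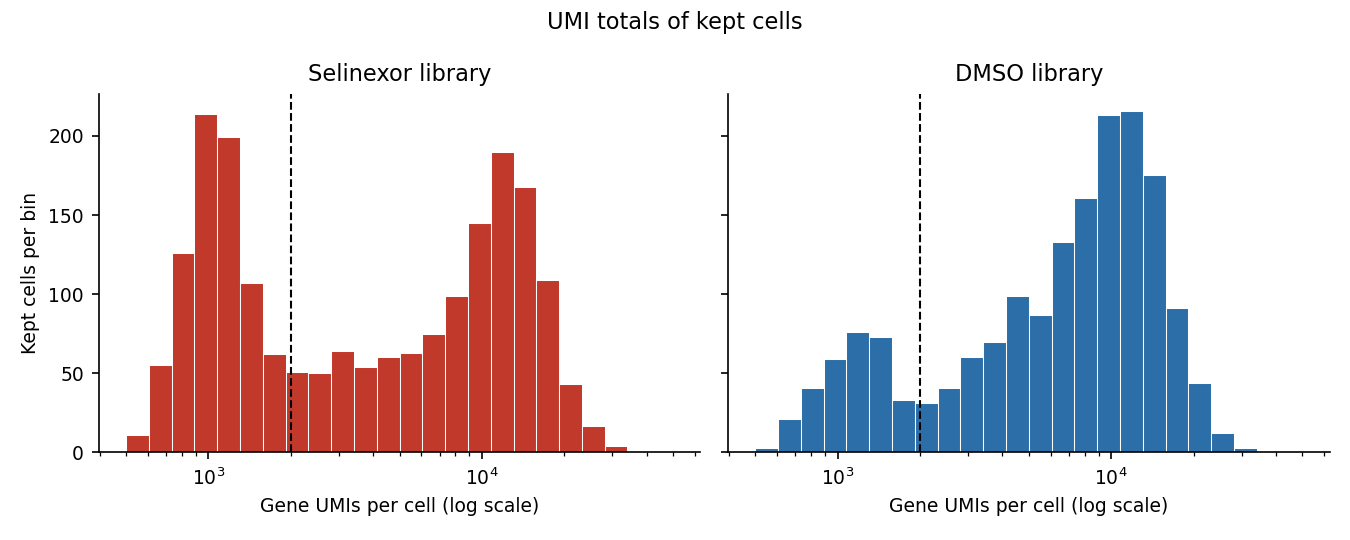
Number of kept cells (vertical axis) by gene UMIs per cell (horizontal axis, log scale, bins of equal width on that scale) in the Selinexor and DMSO libraries; the dashed line marks 2000 UMIs. The low mode holds 783 Selinexor and 312 DMSO cells left of the line.

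The limit of 2000 cuts a continuous range. Just inside it, from 1800 up to 2000 UMIs, 25 Selinexor and 22 DMSO cells had 1.91% and 1.48% of their UMIs in a list of 20 late neutrophil genes. Just outside, within the next 200 UMIs, 32 Selinexor and 16 DMSO cells had 1.46% and 0.884%. S100a8 and S100a9, the calprotectin subunits that are the most abundant transcripts of many neutrophils, took 9.09% and 5.83% of UMIs inside the limit and 5.38% and 5.22% outside it.

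The feature barcode tags gave a readout that the rule did not use. Low-RNA cells carried a median of 1705 tag UMIs in the Selinexor library and 1236.5 in the DMSO library. All cells of 2000 or more UMIs carried 1262.5 and 1065. The median tag count of low-RNA cells was thus not lower than that of cells with a median of 9986 gene UMIs in the Selinexor and 9240 in the DMSO library. The ranges between the quartiles overlapped: low-RNA cells spanned 1224.5 to 2211 tag UMIs in the Selinexor and 784.25 to 1781.5 in the DMSO library, and cells of 2000 or more UMIs 728.75 to 2240 and 656 to 1697. The leading tag was CMO306 in 783 of 783 Selinexor low-RNA cells and CMO305 in 312 of 312 DMSO low-RNA cells. No barcode occurred in both libraries. If barcodes were assigned to the libraries by these tags, both results were fixed in advance and are no check on the cells. Such a step would also leave out barcodes with few tag UMIs. The lowest tag count of a low-RNA cell was 296 in the Selinexor and 255 in the DMSO library. Mitochondrial UMIs, which the rule capped, had medians of 0.932% and 0.720% in low-RNA cells, against 3.06% and 2.47% in cells of 2000 or more UMIs.

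Transcripts of late neutrophils were present in most low-RNA cells. At least 1 UMI of Csf3r (the G-CSF receptor), Cxcr2 (a receptor for CXCL chemokines), Il1r2 (a decoy receptor for IL-1) or Mmp9 (gelatinase B) was found in 566 of 783 Selinexor cells, 72.3% (69.0 to 75.4), and in 236 of 312 DMSO cells, 75.6% (70.5 to 80.3). To compare cells of unequal depth, every cell was thinned at random to 500 UMIs, and none was too shallow for that. At this depth 50.3% of Selinexor and 55.1% of DMSO low-RNA cells kept a UMI of these 4 genes, against 12.4% and 22.9% of all cells of 2000 or more UMIs. Among 145 Selinexor cells rich in the monocyte gene Fn1, which should lack these transcripts, the share was 1.38% (0.167 to 4.89). Among 40 DMSO cells bearing the macrophage complement genes C1qa, C1qb and C1qc it was 20% (9.05 to 35.6). Those 2 background groups had median depths of 13277 and 11078 UMIs and were defined after the data had been seen. Unthinned, 33.8% of the Fn1-rich and 75% of the C1q-bearing cells had such a UMI. So did 56.2% of Selinexor and 83.8% of DMSO cells of 2000 or more UMIs. The unthinned 75.6% of DMSO low-RNA cells was thus near that of C1q-bearing cells, although those were far deeper. The genes behind the 2 shares differed. In C1q-bearing cells Il1r2 alone was found in 75%, Csf3r in 15%, Cxcr2 in 5% and Mmp9 in 7.5%. In DMSO low-RNA cells these were 47.8%, 34.6%, 20.2% and 36.5%. Thinning takes more of any free RNA from deep cells than from shallow ones, and what free RNA adds was not tested.

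Per cell, without any scaling, Csf3r averaged 0.566 UMIs in Selinexor low-RNA cells, against 0.186 in Fn1-rich Selinexor cells, and 0.478 UMIs in DMSO low-RNA cells, against 0.2 in C1q-bearing DMSO cells. Cxcr2 averaged 0.298 UMIs in Selinexor low-RNA cells and 0.0552 in Fn1-rich cells, and 0.346 in DMSO low-RNA cells and 0.0750 in C1q-bearing cells. Mmp9 averaged 0.396 and 0.0552 UMIs in the Selinexor library, and 0.628 and 0.150 in the DMSO library, in the same order. Il1r2 separated the Selinexor groups (0.682 and 0.324) but was higher in C1q-bearing DMSO cells (3.83) than in DMSO low-RNA cells (0.907). Csf3r, Cxcr2 and Mmp9 therefore stood above the level found in cells of another type of the same library.

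S100a8 and S100a9 gave a different picture. The median low-RNA cell had 5 S100a8 UMIs in the Selinexor library and 7 in the DMSO library, while Fn1-rich Selinexor cells had 13 and C1q-bearing DMSO cells had 7.5. S100a9 had medians of 4 and 5 UMIs in low-RNA cells, against 10 in Fn1-rich and 8 in C1q-bearing cells. In the median low-RNA cell these genes lay at or below the level of Fn1-rich and C1q-bearing cells, and they are not read there as expression. Fn1-rich cells, which are monocyte-like, may express both genes themselves, with a mean of 46.4 S100a8 UMIs. They thus give no sure floor of free RNA for these genes, and absence of expression is not read from the comparison either. A minority of low-RNA cells had more than their median. The 90th percentile was 42 S100a8 UMIs in Selinexor low-RNA cells, below the 76.8 of Fn1-rich cells. In DMSO low-RNA cells it was 59.9, above the 35.4 of C1q-bearing cells. Ly6g, the classic surface antigen of mouse neutrophils, had 1 UMI in each library.

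Lists of lymphoid, erythroid, platelet and stem cells had few UMIs. The T and NK cell list of 11 genes summed to 5 UMIs in Selinexor and 2 in DMSO low-RNA cells, the B and plasma cell list to 6 and 0, the erythroid list to 14 and 9, the platelet list to 8 and 2 and the stem cell list to 5 and 2. The eosinophil genes Ccr3, Il5ra, Epx, Prg2, Prg3, Ear1, Alox15 and Ptgdr2 had 0 UMIs in both libraries, which allows up to 3.46 CPM in Selinexor and 8.04 CPM in DMSO low-RNA cells (3 counts of the total). Siglecf, shared by eosinophils and some activated neutrophils, had 21 UMIs in Selinexor and 8 in DMSO low-RNA cells. The whole eosinophil list of 11 genes summed to 69 and 12 UMIs. Most of the 69 came from its member Ear6, whose counts are given further below. The basophil and mast cell list summed to 47 and 21 UMIs, 45 and 14 of them from Kit. The 11 monocyte genes took 0.0730% of UMIs in Selinexor and 0.0777% in DMSO low-RNA cells, against 0.315% and 0.167% in all cells of 2000 or more UMIs. The 13 macrophage genes took 0.0410% and 0.0566%, against 0.0477% and 0.0542%, a like level in both. Ample-RNA neutrophil-like cells, defined below, had 0.0202% and 0.0307%. Those cells were chosen for few UMIs of Fn1, Mrc1 and the C1q genes, so their low macrophage share is partly fixed by that choice. The 12 dendritic cell genes took 0.120% and 0.160%, with the MHC class II chaperone Cd74 giving 881 of 1045 and 501 of 598 UMIs. All cells of 2000 or more UMIs had 0.212% and 0.261%, and ample-RNA neutrophil-like cells 0.156% and 0.111%. Cd74 had a UMI in 58.5% of Selinexor and 67.0% of DMSO low-RNA cells, against 28.7% and 48.0% of ample-RNA neutrophil-like cells. What part other cell types or free RNA have in these values was not tested.

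Among low-RNA cells the neutrophil genes of the 3 granule stages were unequal. The 20 late neutrophil genes took 1.35% of UMIs in Selinexor and 1.36% in DMSO low-RNA cells, and the 13 specific granule genes took 0.597% and 0.406%. The 8 primary granule genes took 0.167% and 0.128%, but Srgn, a proteoglycan that many leukocytes express, gave 1397 of 1448 and 457 of 479 of those UMIs. The cells are called by their low RNA content and given no cell type name, since their median depth was less than 1 part in 3 of that of their own library: 1065 UMIs in the Selinexor library, where that limit is 1328, and 1172 in the DMSO library, where it is 2596. The 10 genes that lead them over other kept cells included the late neutrophil genes Asprv1 and Csf3r in the Selinexor library and none of that list in the DMSO library.

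**Figure D2:**
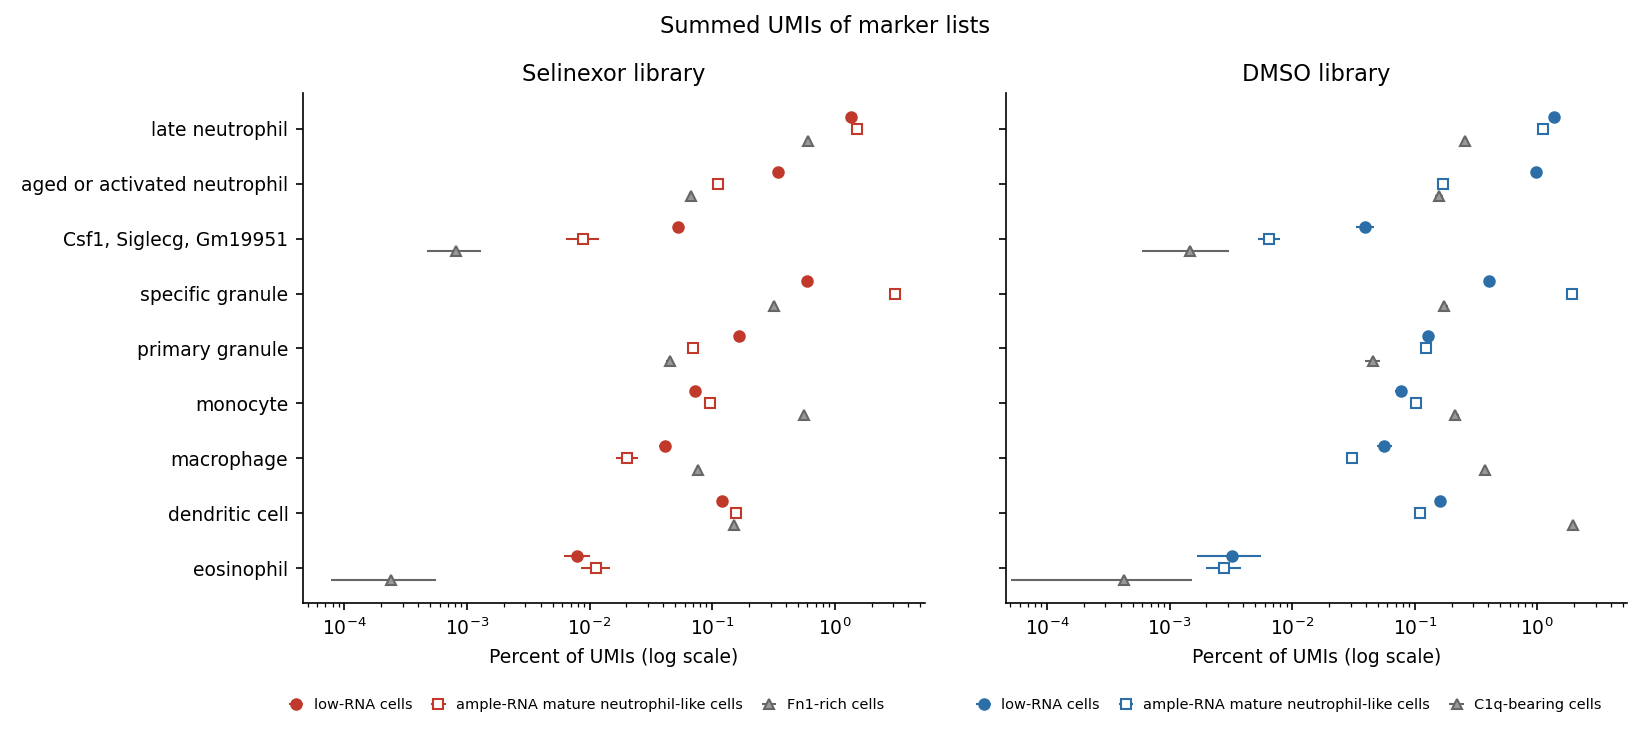
Summed UMIs of 9 marker lists as a percent of all gene UMIs (horizontal axis, log scale) in low-RNA cells (filled circles), ample-RNA mature neutrophil-like cells (open squares) and cells of another type (triangles: Fn1-rich in the Selinexor library, C1q-bearing in the DMSO library); bars are 95% Poisson intervals. Late neutrophil genes take 1.35% and 1.36% of UMIs in low-RNA cells, while specific granule genes take 0.597% and 0.406%, below the open squares. The cells of the open squares were chosen on some late neutrophil, primary granule, monocyte and macrophage genes. Those of the triangles were chosen on Fn1 or the C1q genes. Their values for lists with these genes are partly fixed by that choice.

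The transcripts that low-RNA cells retained were described against ample-RNA mature neutrophil-like cells of the same library. These had 2000 or more UMIs and, thinned to 2000, at least 3 UMIs over Csf3r, Cxcr2, Il1r2 and Mmp9, fewer than 3 over Fn1, Mrc1 and the C1q genes, and fewer than 3 over Mpo, Elane and Prtn3. There were 115 in the Selinexor and 250 in the DMSO library. Their name states this rule and is no cell type call. In the DMSO set Il1r2 was found in 94.8% of cells, Cxcr2 in 77.2%, Mmp9 in 70.4% and Csf3r in 50%. All DMSO cells of 2000 or more UMIs had 72.2%, 31.5%, 21.3% and 29.8%. Csf3r stood at 134 CPM in the DMSO set, below the 399 CPM of DMSO low-RNA cells. Specific granule genes took 3.13% of UMIs in the Selinexor set, against 1.52% in all Selinexor cells of 2000 or more UMIs. The mean low-RNA cell held 1109 UMIs in the Selinexor library, 26.8% of the 4135 in the mean ample-RNA cell. In the DMSO library it held 1196 UMIs, 21.5% of 5572. Both sets were chosen on values of the cells compared, so the differences are a description with no test.

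Counted per cell without scaling, nearly every gene had fewer UMIs in low-RNA cells. The median measured gene (50 or more UMIs over both sets) had 35.7% of its ample-RNA level in the Selinexor library and 28.6% in the DMSO library. Only 15 of the 3206 genes measured in both libraries, 0.468%, had at least as many UMIs per low-RNA cell as per ample-RNA cell in both. Ccl4, a chemokine for monocytes and T cells, averaged 0.696 UMIs per low-RNA cell against 0.139 per ample-RNA cell in the Selinexor library. In the DMSO library it averaged 1.45 against 0.664. Cells of another type were closer: Ccl4 averaged 0.490 in Fn1-rich Selinexor and 1.23 in C1q-bearing DMSO cells, and 0.609 and 0.865 in all cells of 2000 or more UMIs of the Selinexor and DMSO libraries. Ccl3 averaged 1.29 UMIs per Selinexor and 2.68 per DMSO low-RNA cell, against 0.752 in Fn1-rich and 0.875 in C1q-bearing cells, and 1.30 and 1.60 in all cells of 2000 or more UMIs. Csf1, the growth factor of the macrophage lineage, averaged 0.190 UMIs per low-RNA cell against 0.0957 per ample-RNA cell in the Selinexor library and 0.179 against 0.0800 in the DMSO library. Traf1, a signalling adaptor of TNF receptors, averaged 0.134 against 0.0696 and, in DMSO, 0.183 against 0.0720. Gadd45b, a stress response gene, averaged 0.319 against 0.148 and, in DMSO, 0.458 against 0.264. Ccrl2, an atypical receptor that binds chemerin, averaged 0.132 against 0.0609 and, in DMSO, 0.131 against 0.0800. The other members were Clec4a3, Ninj1, Ddt, Ccl3, Ptafr, Gm31814, Hcar2, Scimp, Lst1 and Tsc22d3, with ratios between 1.00 and 1.90.

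The same cells were compared on CPM, the UMIs of a gene scaled to an equal total for each set of cells, as log2 of CPM + 1 in low-RNA over ample-RNA cells. On this scale 598 of the 3514 genes measured stood 2-fold or more higher in Selinexor low-RNA cells (17%) and 127 lower (3.61%). In DMSO low-RNA cells 550 of 3766 were higher (14.6%) and 166 lower (4.41%). The median over all measured genes was itself 0.41 in both libraries, and S100a8 alone stood at 15187 against 87005 CPM in the Selinexor and 18258 against 98981 CPM in the DMSO library. Relative to that median, 195 genes were higher and 241 lower in the Selinexor library, and 178 higher and 313 lower in the DMSO library, so the excess of higher genes turned round. Of the uncentred sets, 230 higher genes were shared, 38.5% of the Selinexor and 41.8% of the DMSO set, and 58 lower genes, 45.7% and 34.9%.

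The 12 genes with the highest ratios in both libraries, taken by the smaller of the 2 ratios, are given here in full. The log2 ratio of Ccl4 was 4.18 in the Selinexor and 3.34 in the DMSO library, that of Csf1 was 2.84 and 3.30, that of Traf1 2.77 and 3.47 and that of Gadd45b 2.98 and 2.99. Ccl3 had 2.13 and 3.14, Mpeg1 (perforin-2) 3.02 and 2.16, Ninj1, which ruptures the membrane of dying cells, 2.62 and 2.51, Ptafr (the receptor of platelet-activating factor) 2.18 and 2.32 and Hcar2 (a receptor for hydroxybutyrate) 2.13 and 2.28. Ccrl2 had 2.93 and 2.85, Clec4a3 (a C-type lectin receptor) 2.54 and 2.81 and Ddt (a tautomerase) 2.35 and 2.45. All 12 exceed the shift of 0.41.

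Csf1, Siglecg and Gm19951 had been named as leading genes of low-RNA cells. Gm19951, a long noncoding RNA at chr12:99643093-99647221 on the plus strand of mm10, had 270 CPM in Selinexor low-RNA cells against 46.3 CPM in ample-RNA cells, and 188 against 40.9 CPM in the DMSO library. It had a UMI in 20.7% of Selinexor and 17.9% of DMSO low-RNA cells, against 0.690% of Fn1-rich and 2.50% of C1q-bearing cells. In ample-RNA neutrophil-like cells that share was 13% in the Selinexor and 17.6% in the DMSO library, and DMSO low-RNA cells averaged 0.224 UMIs against 0.228 per ample-RNA cell. Csf1 had 172 against 23.1 CPM and, in DMSO, 150 against 14.4 CPM. Siglecg, an inhibitory sialic acid receptor best known from B cells, had 89.9 against 18.9 CPM and, in DMSO, 56.3 against 10.0 CPM, the DMSO values resting on 21 and 14 UMIs. It was found in 8.81% of Selinexor and 5.45% of DMSO low-RNA cells, in 0 of 145 Fn1-rich cells, which allows up to 2.51% (Clopper-Pearson), and in 2.50% of C1q-bearing cells, while ample-RNA neutrophil-like cells had it in 5.22% (Selinexor) and 5.60% (DMSO). Csf1 had a UMI in 12.1% of Selinexor and 12.2% of DMSO low-RNA cells, against 8.28% of Fn1-rich and 12.5% of C1q-bearing cells, so in the DMSO library that share is not above background, although those cells were far deeper.

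As the genes highest in low-RNA cells include known NF-kB targets, their promoters were searched for a kB-type motif. The windows were 250 bases before to 50 after the start, from RefSeq on GRCm38.p6. The motif, searched on both strands, was GGG, any 2 bases (NN), TT, any base (N) and CC, and 2 of the 10 highest genes with a window held it, Csf1 and Ccrl2, as did 1480 of 27025 genes overall (5.48%). A gene counted if any of its windows held the motif. Ccrl2 had 3 windows, and those not printed here lacked it. A match is a description of these letters and not a binding site. The 2 windows with the motif lie on the minus strand, Csf1 at chr3:107760420-107760719 and Ccrl2 at chr9:111057469-111057768. The capitals mark the motif, which starts 154 bases before the Csf1 start and 56 before that of Ccrl2.
Csf1: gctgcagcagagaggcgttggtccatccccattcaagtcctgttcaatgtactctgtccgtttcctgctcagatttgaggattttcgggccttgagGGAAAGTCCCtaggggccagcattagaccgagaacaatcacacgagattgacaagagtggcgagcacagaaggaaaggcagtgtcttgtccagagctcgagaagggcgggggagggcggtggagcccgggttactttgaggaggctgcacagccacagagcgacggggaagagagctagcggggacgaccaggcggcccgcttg
Ccrl2: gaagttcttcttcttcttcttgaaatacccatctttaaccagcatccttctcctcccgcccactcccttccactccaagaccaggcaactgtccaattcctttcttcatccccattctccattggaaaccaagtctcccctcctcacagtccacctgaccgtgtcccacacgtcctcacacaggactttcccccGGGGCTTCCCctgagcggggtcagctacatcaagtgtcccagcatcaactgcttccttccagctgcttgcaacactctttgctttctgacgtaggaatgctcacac

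Specific granule and stefin genes were the lowest. Ngp (neutrophilic granule protein) averaged 0.699 UMIs per low-RNA cell against 39.7 per ample-RNA cell in the Selinexor library, a log2 CPM ratio of -3.93. In the DMSO library it averaged 0.330 against 24.2, a ratio of -3.97. Lactoferrin (Ltf) had ratios of -3.74 and -4.00, the neutrophil antigen Cd177 -3.95 and -4.02 and the antimicrobial peptide Camp -3.45 and -2.88. The ample-RNA means rested on a part of those cells. Their median was 3 Ngp UMIs in the Selinexor and 1 in the DMSO library, with 90th percentiles of 139 and 88.1. Their medians of Ltf and Camp were 0 in both libraries. Retnlg, a resistin-like protein of mature neutrophils, had 32 UMIs in Selinexor and 0 in DMSO low-RNA cells, against 207 and 156 UMIs in ample-RNA cells. Stfa2 (-4.97 and -5.13), Stfa3 and Cstdc5 belong to a family of near-identical stefin A copies, and the value of each single copy is uncertain. Of 11 measured specific granule genes in the Selinexor library 10 were at least 1.5-fold lower, where 7% of all measured genes were. In the DMSO library 9 of 12 were, against 8.39%.

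Several gene lists had CPM ratios that differed from those of all genes, although per cell their UMIs were fewer in low-RNA cells. Immediate early genes summed to 4.8 UMIs per low-RNA cell against 9.70 per ample-RNA cell in the Selinexor library, and to 7.31 against 12.1 in the DMSO library. NF-kB targets summed to 3.84 against 7.27 and, in DMSO, 4.54 against 7.98. The aged or activated neutrophil list was the exception in the DMSO library, with 11.6 against 9.53, and had 3.82 against 4.62 in the Selinexor library. Nearly all of the DMSO excess came from Ccl3 (2.68 against 1.41) and Ccl4 (1.45 against 0.664). Cxcl2, also of that list, had 4.59 against 4.61. The 4.59, and so the sum of the list in DMSO low-RNA cells, rests in part on a single cell. That cell held many of the Cxcl2 UMIs, as counted further below. On the CPM scale immediate early genes had 8 of 13 members at least 1.5-fold higher in the Selinexor library and 14 of 15 in the DMSO library, where 37.9% and 38.2% of all measured genes were. Their median log2 ratios were 0.87 and 1.52, against 0.41 over all genes. The aged or activated neutrophil list had 8 of 11 and 8 of 9 members higher, with medians of 1.20 and 2.57, and NF-kB targets had 8 of 12 and 11 of 13, with medians of 0.81 and 1.08. Targets of p53 had medians of 0.82 and 1.34. Mitochondrially encoded genes had 0 of 12 higher and 11 of 12 lower in both libraries, with medians of -1.02 and -0.99, but the rule's limit on their share bears on them. Ribosomal protein genes had medians of 0.03 and -0.21, below the median gene.

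**Figure D3:**
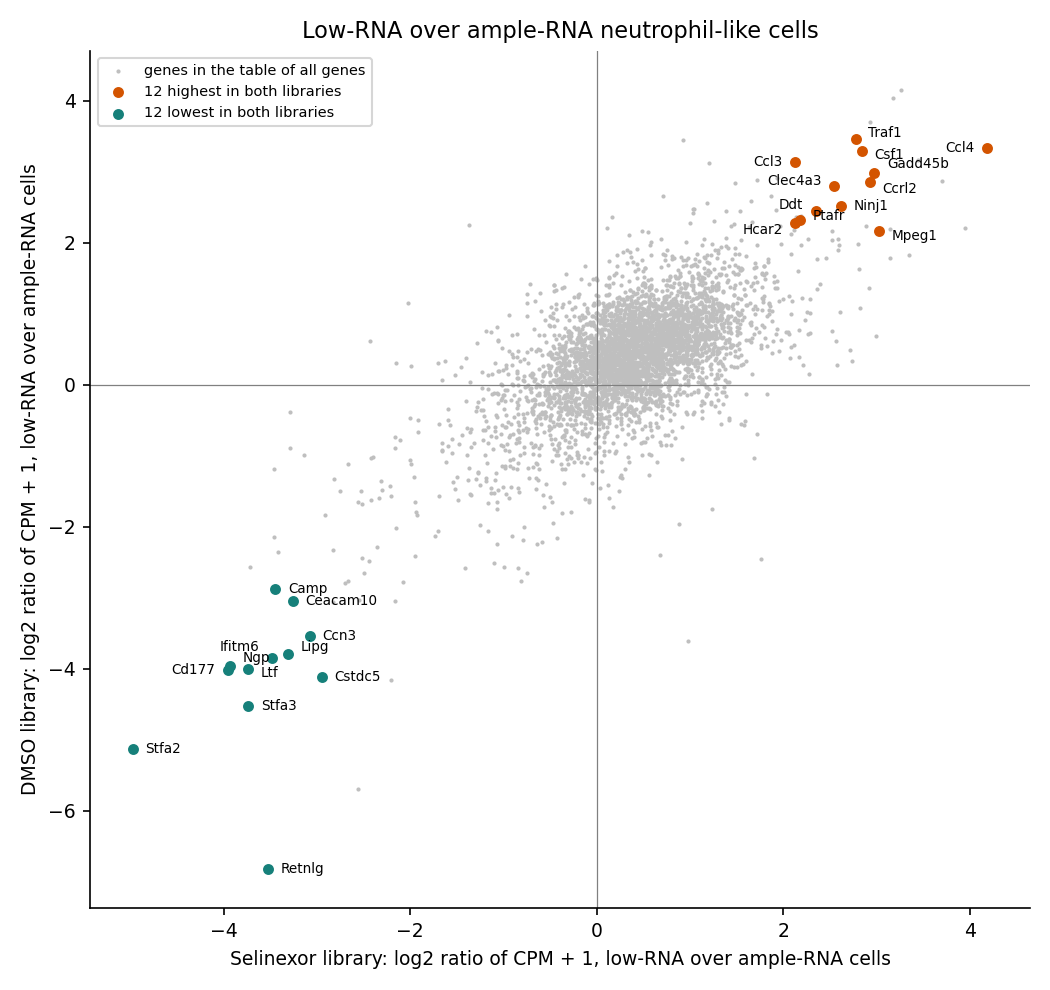
Log2 ratio of CPM + 1 in low-RNA over ample-RNA neutrophil-like cells in the Selinexor library (horizontal axis) and the DMSO library (vertical axis); grey points are genes, and the 12 highest and 12 lowest in both libraries are coloured and named. Ccl4 (4.18 and 3.34) and Csf1 (2.84 and 3.30) lie at the upper right and Ngp (-3.93 and -3.97) at the lower left, and the cloud is centred near 0.41 on both axes; the height of Retnlg rests on 0 DMSO UMIs and the pseudocount.

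Gm42418 was the most abundant gene of low-RNA cells in both libraries. This noncoding RNA on chromosome 17 that overlaps an annotated ribosomal RNA gene took 9.14% of UMIs in Selinexor and 7.79% in DMSO low-RNA cells. Malat1, a nuclear long noncoding RNA, took 3.48% and 1.84%. It averaged 38.5 UMIs per Selinexor and 22 per DMSO low-RNA cell, with a log2 ratio between the libraries of 0.92 (0.88 to 0.96), and 1.07 in ample-RNA cells. The ferritin heavy chain Fth1 took 2.76% and 3.05%.

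Selinexor and DMSO low-RNA cells were then compared with each other, a comparison at nearly like depth, as log2 of CPM + 1 in Selinexor over DMSO. Of 3492 genes with 50 or more UMIs over both, 134 were at least 2-fold higher in Selinexor low-RNA cells (3.84%) and 75 lower (2.15%), with a median of 0.03. After each cell was thinned to 500 UMIs, 76 and 43 genes reached 2-fold among the genes that then had 50 UMIs, of which 34 and 30 were among the 134 and 75. In the ample-RNA cells 6.95% of measured genes were 2-fold higher and 6.4% lower. That ratio uses other cells of the same 2 libraries, so it cannot tell a change of low-RNA cells from one of the whole library.

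Xpo1, which encodes exportin 1, the protein that Selinexor binds, had 257 UMIs in Selinexor and 34 in DMSO low-RNA cells, 296 and 91.1 CPM. It had a UMI in 26.6% of Selinexor and 9.94% of DMSO low-RNA cells. The log2 ratio was 1.69 (1.18 to 2.26), 1.54 after thinning and 2.09 in ample-RNA cells. Of 8 measured nuclear transport genes 3 were at least 1.5-fold higher (13.4% of all measured genes were) and 2 lower (8.99%). Xpo6, an export receptor for actin and profilin, had 55 and 9 UMIs, a ratio of 1.36 (0.36 to 2.60). Ran, the GTPase of the cycle, had 131 and 93 UMIs (-0.72, -1.12 to -0.32), and its binding protein Ranbp1 had 86 and 56 (-0.59, -1.10 to -0.09).

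Ighm, the immunoglobulin mu constant gene, had the highest ratio, with 294 UMIs in Selinexor and 2 in DMSO low-RNA cells, a log2 ratio of 5.74 (4.12 to 9.03). It was found in 21.5% of Selinexor and 0.641% of DMSO low-RNA cells. The B cell genes Cd79a, Vpreb1, Igll1 and Ebf1 had 1, 2, 1 and 2 UMIs in Selinexor and 0 in DMSO low-RNA cells. Ighm was also uneven in other cells of the libraries, with 307 against 13 UMIs in ample-RNA cells and 223 against 13.9 CPM in all cells of 2000 or more UMIs. It averaged 289 CPM in Fn1-rich Selinexor cells, against 339 CPM in Selinexor low-RNA cells.

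Arrdc3, an arrestin-domain adaptor, had 97 UMIs in Selinexor and 4 in DMSO low-RNA cells (a log2 ratio of 3.27, 1.98 to 5.29). Crebrf, a regulator of the CREB3 stress factor, had 88 and 5 UMIs (2.83, 1.64 to 4.58) and the antiproliferative Btg3 67 and 5 (2.44, 1.23 to 4.19). The aspartic protease gene Asprv1, which neutrophils express, had 467 and 37 UMIs (2.43, 1.96 to 2.96) and the monocarboxylate transporter family member Slc16a6 260 and 26 (2.09, 1.52 to 2.75). Mxd1, a MYC antagonist of mature neutrophils, had 550 and 69 UMIs (1.77, 1.41 to 2.16), Hmgb2, a chromatin protein, 1481 and 283 (1.17, 0.99 to 1.36) and the ubiquitin ligase Birc3 160 and 22 (1.63, 1.00 to 2.36). Coagulation factor gene F5 had 52 and 3 UMIs (2.75, 1.27 to 5.22), Med22 64 and 4 (2.67, 1.36 to 4.70) and Foxn3 132 and 12 (2.21, 1.39 to 3.23). Ear6, a member of the eosinophil list, had 47 and 4 (2.23, 0.88 to 4.27) and Rbm38 54 and 5 (2.13, 0.90 to 3.89). The antisense gene Sp3os had 78 and 6 UMIs (2.41, 1.30 to 3.97). Whether reads of an overlapping gene add to its count was not tested. All of these except Sp3os were also above 0 in ample-RNA cells.

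Cxcl2, a neutrophil-attracting chemokine, had 248 UMIs in Selinexor and 1433 in DMSO low-RNA cells, 427 of the 1433 in 1 cell. Its log2 ratio was -3.74 (-3.95 to -3.55), and -3.32 without the cell of each library with most of its UMIs. Cxcl3 had 3 and 51 UMIs, 23 of the 51 in 1 cell (-4.95, -7.63 to -3.68). Interleukin 1 beta (Il1b) had 426 and 506 UMIs (-1.46, -1.66 to -1.28), Tnf 131 and 129 (-1.19, -1.56 to -0.83), Ccl3 1007 and 836 (-0.95, -1.08 to -0.82) and Ccl4 545 and 453 (-0.95, -1.13 to -0.77). The transcription factor Egr1 had 93 and 170 UMIs (-2.08, -2.47 to -1.72). Csf1 did not share this direction, with 149 and 56 UMIs and an interval that spans 0 (0.19, -0.26 to 0.66). Among 11 measured chemokine and cytokine genes 6 were lower by 1.5-fold or more and none higher (7 and 2 after thinning), and their median was -0.95, against 8.99% and 13.4% of all measured genes and a median of 0.03. Immediate early genes had 5 of 15 lower and 1 higher, with a median of -0.42, and 0.14 in ample-RNA cells.

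Genes of glycolysis and the hypoxia response, taken as 1 list, had ratios below 0 in 15 of 15 measured, and in 13 after thinning. By 1.5-fold or more, 9 were lower (8.99% of all measured genes were) and none higher (13.4%). After thinning 10 were lower and 1 higher. The median was -0.69, -0.74 after thinning and -0.78 in ample-RNA cells. Gapdh had 797 and 750 UMIs (-1.13, -1.28 to -0.98), the isomerase gene Tpi1 176 and 170 (-1.16, -1.48 to -0.86), Ldha 227 and 181 (-0.89, -1.18 to -0.60) and Pkm 500 and 347 (-0.69, -0.89 to -0.49). Ribosomal protein genes had 82 of 86 members below 0, with a median of -0.34, but the 7 that were 1.5-fold lower are no larger a share than the 8.99% of all measured genes.

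Among other genes low in Selinexor low-RNA cells, Spp1 (osteopontin) had 100 UMIs, against 244 in DMSO low-RNA cells (a log2 ratio of -2.49, -2.86 to -2.16), lipoprotein lipase Lpl 82 and 189 (-2.41, -2.81 to -2.04), lamin A/C (Lmna) 22 and 56 (-2.52, -3.35 to -1.83), E-cadherin (Cdh1) 17 and 43 (-2.50, -3.46 to -1.72), S100a10 64 and 101 (-1.86, -2.35 to -1.41) and the tautomerase Ddt 180 and 294 (-1.92, -2.20 to -1.65). Slpi, an antiprotease, had 1169 and 1135 UMIs (-1.18, -1.29 to -1.06), and the cell cycle inhibitor Cdkn1a 334 and 315 (-1.13, -1.36 to -0.91). The stefin copies Cstdc4 (322 and 1017 UMIs), Stfa2l1 (117 and 380) and Csta2 (98 and 289) had ratios of -2.87, -2.91 and -2.77, each uncertain by itself. For Stfa2l1 the ratio in ample-RNA cells was -0.01, and for Cdh1 it was -0.04.

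**Figure D4:**
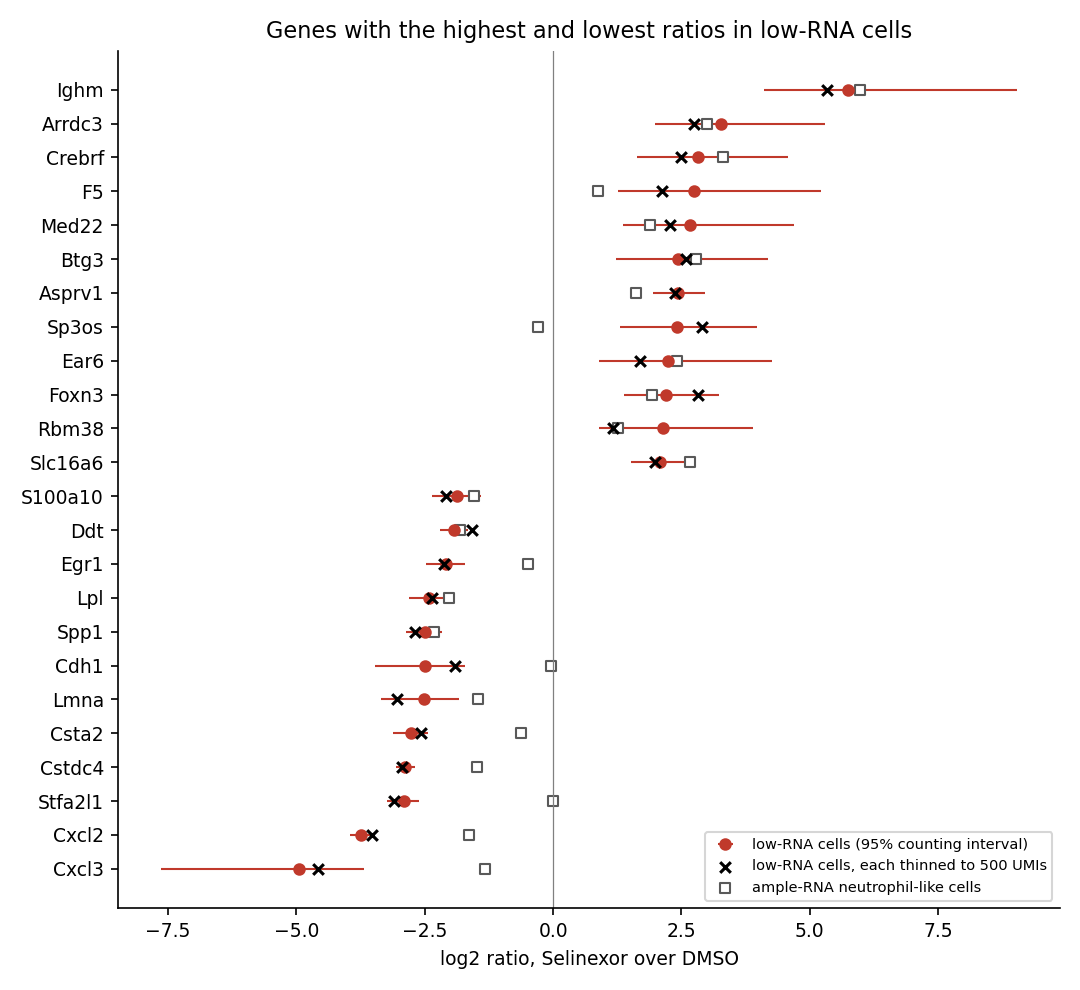
Log2 ratio of Selinexor over DMSO (horizontal axis) for the 12 highest and 12 lowest genes of low-RNA cells: circles with 95% counting intervals for all UMIs, crosses after thinning each cell to 500 UMIs, open squares for ample-RNA cells. Ighm (5.74) is at the top and Cxcl3 (-4.95) at the bottom, and the squares of Stfa2l1, Cdh1 and Sp3os lie near 0.

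Late neutrophil genes had a median near 0 between the 2 sets of low-RNA cells, and specific granule genes one above it. Of 18 measured late neutrophil genes 3 were at least 1.5-fold higher (13.4% of all measured genes were) and 4 lower (8.99%) in Selinexor low-RNA cells, with a median of -0.10, or 0.06 over the genes that still had 50 UMIs after thinning. Csf3r had 443 and 149 UMIs (0.35, 0.08 to 0.63), Cxcr2 233 and 108 (-0.11, -0.44 to 0.23), Il1r2 534 and 283 (-0.30, -0.51 to -0.09) and Mmp9 310 and 196 (-0.56, -0.82 to -0.29). Specific granule genes had 5 of 10 higher and 1 lower, with a median of 0.53 that turned to -0.02 with a UMI limit of 1500 and also with one of 2500. With the limit of 2500 lactoferrin (Ltf, 103 and 25 UMIs) turned from 0.82 to -1.33 and Camp (91 and 25 UMIs) from 0.64 to -1.0. Ngp had 547 and 103 UMIs (1.19, 0.88 to 1.51), but its ratio was 0.49 with a UMI limit of 1500 and 0.41 with one of 2500. Collagenase Mmp8 had 951 and 189 UMIs (1.11, 0.89 to 1.35; 0.76 with a limit of 1500), haptoglobin Hp 1643 and 336 (1.07, 0.90 to 1.25) and Anxa1, listed with them, 89 and 120 (-1.64, -2.06 to -1.24). Retnlg, with 0 UMIs in DMSO low-RNA cells, was at least 4.59-fold higher in Selinexor low-RNA cells, against a floor of 3 counts over the DMSO group.

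Survival and death genes had medians above 0. The BCL2 family had 2 of 8 measured genes at least 1.5-fold higher (13.4% of all measured genes were) and 0 lower (8.99%), with a median of 0.32. The prosurvival Bcl2a1b had 533 and 143 UMIs (0.68, 0.41 to 0.96) and its copy Bcl2a1a 620 and 178 (0.58, 0.34 to 0.83), near-identical genes whose single values are uncertain. The proapoptotic Pmaip1 had 89 and 15 UMIs (1.33, 0.55 to 2.25), and Mcl1 had 1036 and 408 (0.13, -0.04 to 0.29). Death receptor and caspase genes had 3 of 9 higher and 0 lower, with a median of 0.24. NADPH oxidase genes, which make the oxidative burst, had 1 of 8 higher and 1 lower, with a median of -0.09, and suppression genes of MDSCs 1 of 7 higher and 0 lower, with a median of -0.08, both near the shares over all measured genes. Among the suppression genes, Wfdc17 had 1272 and 590 UMIs (-0.11, -0.25 to 0.03) and Arg2 128 and 74 (-0.43, -0.85 to 0.01).

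**Figure D5:**
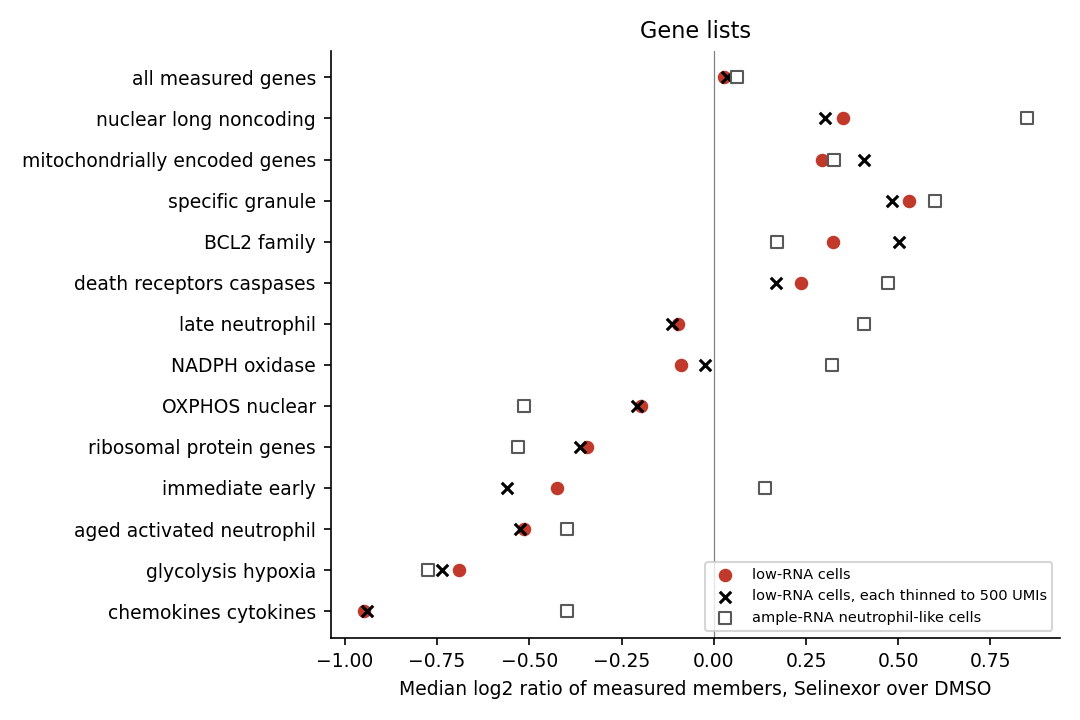
Median log2 ratio of Selinexor over DMSO (horizontal axis) of the measured members of 13 gene lists and of all measured genes, in low-RNA cells (circles), the same cells thinned to 500 UMIs (crosses) and ample-RNA neutrophil-like cells (open squares). Chemokines and cytokines (-0.95) and glycolysis and hypoxia (-0.69) lie furthest left for low-RNA cells. Immediate early genes (-0.42) lie left of 0 while their square (0.14) lies right.

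Clustering low-RNA cells by themselves gave 5 sub-clusters, most of them dominated by 1 library, so they cannot be told from it and stay unnamed. Sub-cluster 3 held 48 Selinexor and 187 DMSO cells, 6.13% and 59.9% of the members, and was led by Cxcl3, Cxcl10 and Cxcl2. The share of its cells with a UMI of Csf3r, Cxcr2, Il1r2 or Mmp9 was 80%. Sub-cluster 1 (280 and 48 cells, 81.1% with such a UMI) was led among annotated protein genes by Ifitm1, and sub-cluster 2 (256 and 40 cells) by Gpnmb, Atp6v0d2, Rgs1 and Cd93. In sub-cluster 2 that share was lower, at 56.1%, and macrophage genes took 0.0688% of UMIs, against 0.0303% to 0.0429% in sub-clusters 1, 3 and 4. Sub-cluster 4 (178 and 23 cells) was led by Olfm4, Retnlg, Cd177 and Ngp, and 88.6% of its cells had a UMI of the 4 late genes. Sub-cluster 5, with 21 and 14 cells, had the lowest such share: Mmp12 and Fn1 led it, Gm42418 took 38.4% of its UMIs and 11.4% of its cells had a UMI of those 4 genes. Without it, 129 genes were 2-fold higher and 74 lower in Selinexor low-RNA cells.

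The composition of low-RNA cells shifted with their depth. In bands that start at 500, 1000 and 1500 UMIs, each 500 wide, S100a8 took 0.889%, 1.28% and 3.28% of UMIs in Selinexor cells, and 0.926%, 1.65% and 2.96% in DMSO cells. Csf1 stood at 242, 158 and 90.1 CPM in Selinexor cells and at 153, 180 and 85.0 CPM in DMSO cells. Late neutrophil genes took 1.26%, 1.31% and 1.63% in Selinexor and 1.25%, 1.37% and 1.45% in DMSO cells. When both libraries were weighted to the same mix of these bands, 129 genes were 2-fold higher and 77 lower in Selinexor low-RNA cells, close to the 134 and 75 found without weights.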

How the data were processed

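Raw UMI counts per gene and cell were deposited by the authors as 10x matrices of 32285 genes and 12 feature barcode tags, made with Cell Ranger 6.1.2 on mm10 per the submitters' processing notes; the annotation release is not given in the sources used here. Of 3773 barcodes 3710 passed the limits on genes and mitochondrial UMIs, with library medians of 3984 UMIs (Selinexor) and 7788 (DMSO). No doublets were called or removed, and no barcode was shared. The members, the 33 gene lists and the tests were chosen with earlier results of these data known. The background cells (Fn1-rich, 20 or more Fn1 UMIs; C1q-bearing, 10 or more C1q UMIs and 2000 or more in all) were defined after the data were seen.

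Counts were summed over cells and scaled to CPM, with a pseudocount of 1 CPM, for genes with 50 or more UMIs over both sets. With 1 library per group there is no test. Intervals are 95% Clopper-Pearson (shares), Poisson (sums) and conditional binomial (ratios), and cover counting error only. Named genes were Csf1, Siglecg and Gm19951, the 15 most abundant per library, the 12 highest and 12 lowest of each comparison (leaving out mitochondrial, ribosomal protein and Gm or Rik genes, and requiring the same direction after thinning or in both libraries), and up to 4 members of each list by UMIs and 4 by ratio, with every member of the neutrophil-defining and eosinophil lists. Genes with as many UMIs per low-RNA as per ample-RNA cell were named after their values were seen. Sub-clusters came from Leiden clustering at resolution 0.5 on 1000 variable genes, 15 principal components and 15 neighbours. Tools were Python 3.11.15, numpy 2.4.6, scipy 1.17.1, pandas 2.3.3, scanpy 1.11.5, leidenalg 0.10.2, matplotlib 3.10.9 and R 4.3.3, with edgeR 4.0.16 and DESeq2 1.42.0 for scaling factors alone. The ratio step was tested on simulated data.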

Additional observations from a re-analysis of the deposited data

Results flagged for a closer look

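Sp3os, an antisense gene at chr2:72979424-72988677 on the plus strand of mm10, went opposite ways in the 2 libraries. Its log2 ratio of low-RNA over ample-RNA cells was 1.68 in the Selinexor library (78 against 13 UMIs) and -1.02 in the DMSO library (6 against 47 UMIs). The difference between the libraries was not tested, as each group holds 1 library.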

How the results depend on the processing

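No paired analysis was possible because each group holds 1 library, so no replicate could be left out either. With a UMI limit of 1500 low-RNA cells made up 35.2% of Selinexor and 14.8% of DMSO kept cells, and with a limit of 2500 they made up 43.0% and 20.2%. The late neutrophil list then took 1.29% (limit 1500) and 1.39% (limit 2500) of Selinexor UMIs and 1.32% (limit 2500) of DMSO UMIs, and 1.32% of Selinexor UMIs after thinning.

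Of Selinexor over DMSO, the 134 higher and 75 lower genes became 76 and 43 after thinning, 366 and 226 at a floor of 20 UMIs, 2424 and 1508 with no floor, and 83 higher with a pseudocount of 10 CPM; the floor and thinning change how many genes are measured. Of low-RNA over ample-RNA cells, the 598 higher and 127 lower Selinexor genes became 1093 and 257 at a floor of 20 UMIs, 314 and 56 after thinning and 195 and 241 relative to the median gene, with 316 higher without S100a8, S100a9 and the ribosomal RNA locus, and 81 lower against comparison cells with 5 or more late UMIs. The 550 and 166 DMSO genes became, under the same 5 settings, 1063 and 384, 130 and 40, 178 and 313, 244 and 251, and 327 and 67. The cause was not tested. Centring, leaving out abundant genes or the ribosomal locus, leaving out the fullest cell and leaving out the Fn1 sub-cluster were added after seeing the data.

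Gm26917, lower in Selinexor low-RNA cells at -2.41, turned to 0.74 without the fullest cell of each library, which held 47 of its 52 DMSO UMIs. Among genes under 2-fold, Ltf and Camp turned below 0 at UMI limits of 1500 and 2500. With the limit of 2500 Cstdc5 also turned from 0.50 to -0.42 and S100a9 from 0.27 to -0.11. Some other genes with small ratios changed sign in other settings. The other 49 of 50 named genes past 2-fold kept their direction in each setting where they were measured. With a UMI limit of 2500, 46 of 50 stayed past 2-fold; the others were Ngp (0.41), Hp (0.95), Hk2 (-0.88) and Cdkn1a (-0.93). Depth limits genes under 50 UMIs over the sets compared, which were left out of the main counts; Retnlg and the DMSO values of Siglecg are given below that floor.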
